A study of Homo sapiens with 6 samples.

Results

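The dystrophin-glycoprotein complex ties the actin cytoskeleton of a muscle cell to the laminin of its basement membrane. A set of 8 of its genes was matched by symbol in the deposited count table, namely DMD, UTRN, DAG1, SGCA, SGCB, SGCD, SNTB1 and SNTB2, and all 8 of 8 were found among its 58735 rows and passed the filter on low counts together with 15935 genes in all. RD is an established cell line of embryonal rhabdomyosarcoma, a childhood tumor with a skeletal muscle phenotype. The RD cultures were transduced with lentivirus that carried, in the pLKO.1-mCherry-Puro vector, either scrambled shRNA (control, n = 3) or an shRNA against TAK1 (TAK1 knockdown, n = 3), so both groups shared the vector and the transduction and differed in the shRNA. A single TAK1 shRNA construct was used for the sequenced cells, so effects of the knockdown and of that construct cannot be told apart, and the libraries were made from poly(A)-enriched RNA.

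In this complex dystrophin (DMD) or its autosomal relative utrophin (UTRN) binds actin at one end and beta-dystroglycan at the other. Beta-dystroglycan and the laminin-binding alpha-dystroglycan are cut from a single precursor encoded by DAG1. The sarcoglycans, here alpha (SGCA), beta (SGCB) and delta (SGCD), form a membrane subcomplex that holds the dystroglycans in place, and the beta1 and beta2 syntrophins (SNTB1, SNTB2) are PDZ-domain adaptors bound to the dystrophin tail. Loss of dystrophin causes Duchenne muscular dystrophy and loss of a sarcoglycan causes limb-girdle dystrophy, while utrophin is concentrated at the neuromuscular junction of mature fibers and is widespread in immature muscle.

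The quality of the libraries was examined first. Total counts ran from 28839898 to 34469323 per library, and the TAK1 gene MAP3K7 decreased from 77.3 ± 0.743 to 31.3 ± 2.00 CPM (SD, n = 3). Its adjusted p by edgeR was 4.45e-14. CPM values are counts per gene scaled to the normalized size of the library. Of 7 myogenic markers, 5 lay above 1 CPM, including MYOD1, MYOG and DES, whereas MYF5 had 0 counts in every library and MYF6 at most 1 count. The summed myogenic markers reached 1951 to 1968 CPM in control and 1826 to 1926 CPM in knockdown libraries. Within this sum CHRNA1 had the lower mean in knockdown libraries (921 against 700 CPM), while the means of MYOD1 (263 against 339 CPM), MYOG (141 against 170 CPM), DES (340 against 362 CPM) and CHRND (296 against 301 CPM) were higher. None of the 5 leukocyte, 4 endothelial and 4 epithelial markers reached 1 CPM, and CD3E, CDH5, KDR, CDH1 and KRT19 were at 0 throughout. Of 4 fibroblast markers, DCN and LUM lay above 1 CPM and DPT was at 0, with sums of 6.65 to 8.10 CPM in control and 6.94 to 12.1 CPM in knockdown libraries, and the part of these transcripts in the results was not tested. In bulk RNA, fewer cells expressing a gene and less of its RNA per cell cannot be told apart. Nothing in the sample labels ties the libraries to separate cultures, so the p-values below measure the spread between these libraries, which may be technical.

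TAK1 knockdown RD cells had less UTRN and DAG1 mRNA and more SGCA mRNA than control cells, while the other 5 members did not pass both thresholds of the test. UTRN fell by 39.4%, DAG1 fell by 26.2%, and SGCA was 24.0% higher. A gene was called when edgeR's quasi-likelihood test gave an adjusted p under 0.05 (Benjamini-Hochberg over all tested genes) and the log2 fold change was at least 0.25 in size. By this rule 3 of the 8 members were called, against 23.1% of all tested genes. Called down were 2 members, against 11.3% of all tested genes, and called up was 1 member, against 11.8%. The control and knockdown libraries did not overlap for 5 of the 8 members, against 43.9% of all tested genes. The median log2 fold change over the 8 members was -0.08, and over all tested genes it was 0.02.

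The sequences next to the transcription starts are shown for the 2 members that fell and for DMD, the relative of UTRN that did not pass the fold threshold. They are taken from RefSeq (GRCh38.p14), run 5′ to 3′ on the transcribed strand from 120 to 11 bases before the start, and hold 0 bases of annotated exons. Capitals mark CG dinucleotides, a feature chosen after the sequences were seen. The UTRN stretch lies at chr6:144285215-144285324 on the plus strand, the DAG1 stretch at chr3:49470012-49470121 on the plus strand and the DMD stretch at chrX:33211560-33211669 on the minus strand. The starts of UTRN and DMD are those of the MANE Select transcripts, and for DAG1 the first RefSeq start was taken because exons cover the bases before its MANE Select start.
UTRN: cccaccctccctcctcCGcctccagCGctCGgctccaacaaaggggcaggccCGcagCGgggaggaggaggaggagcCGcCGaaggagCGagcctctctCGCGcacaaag
DAG1: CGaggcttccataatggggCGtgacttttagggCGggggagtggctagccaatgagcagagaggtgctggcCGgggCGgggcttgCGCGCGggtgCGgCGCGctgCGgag
DMD: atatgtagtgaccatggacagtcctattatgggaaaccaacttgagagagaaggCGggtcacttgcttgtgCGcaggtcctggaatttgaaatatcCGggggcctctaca
The stretch of UTRN holds 10 CG dinucleotides at a GC content of 71.8% and that of DAG1 holds 12 at 70.0%, while that of DMD holds 3 at 49.1%. Over the 35116 RefSeq starts, the same stretch holds a median of 5 CG dinucleotides, with quartiles of 1 and 11, and has a median GC content of 60.0%. A high GC content was not limited to the members that fell. In the 250 bases before the MANE Select start it was 73.2% for UTRN, 73.6% for SGCB and 68.0% for SNTB2. For SGCD it was lower, at 53.2%. SGCB, SNTB2 and SGCD were not called, and a link between CG content and the change in expression was not tested.

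Longer windows, from 250 bases before to 50 bases after each RefSeq start, were searched on both strands for 4 short motifs. Windows were matched by symbol for 6 of the 8 members, with 14 windows in all, several of which overlap; SGCA and SNTB1 had none. The E-box CAGCTG bound by myogenic factors was found in 1 of the 14 member windows, against 17.9% of all windows. The AP-1 motif TGANTCA was found in 2 of the 14, against 7.71%. All of these are windows of DMD, which has more windows than any other member. The E-box lies at a start 127839 bases upstream of the MANE Select start of DMD. The window of the MANE Select start itself holds the AP-1 motif but no E-box. The TEAD motif CATTCC was present at SGCD and SNTB2 and occurs in 14% of all windows. The ETS motif CCGGAA, which serves as the N-box of synaptic genes, was present at SNTB2 and occurs in 17.2% of all windows. Neither the UTRN nor the DAG1 windows held any of the 4 motifs, which says only that these letters are not in these windows.

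To compare the members with each other, counts were divided by gene length and then scaled to the sum of these length-divided counts over all genes with a length in the same library (TPM), a scale other than CPM. DAG1 had the highest such level in control cells, 629 ± 18.3 (SD, n = 3), which was 3.27 times that of SGCA at 192 ± 5.61. SGCB followed at 92.1 ± 5.91, SNTB1 at 75.6 ± 2.15 and UTRN at 65.5 ± 0.647. The lowest levels were those of SGCD at 25 ± 0.182, SNTB2 at 16.7 ± 1.2 and DMD at 3.91 ± 0.130. No neighbors in this order overlapped among the control libraries. In TAK1 knockdown cells the order was kept, but SGCB at 82.9 ± 6.76 and SNTB1 at 81.5 ± 1.15 overlapped. The distance between DAG1 and SGCA narrowed from 3.27 to 1.94 times, and that between UTRN and SGCD from 2.62 to 1.57 times. The distance widened between SGCA and SGCB, from 2.09 to 2.98 times, and between SNTB1 and UTRN, from 1.15 to 1.99 times. DAG1 made up 56.8% to 57.8% of the summed level of the 8 members in control libraries and 48.1% to 49.7% in knockdown libraries.

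These levels rest on the union of annotated exons as gene length. That union is 55038 bases for DMD, which has 91 annotated transcripts, and its MANE Select transcript is 13992 bases long. With MANE Select lengths, which also change the sum used for scaling, the DMD level in control cells was 8.5 in place of 3.91 and remained the lowest. SGCB at 52.3 and SNTB1 at 57.5 then exchanged places. The distances between members also depend on the length used. With MANE Select lengths DAG1 stood at 464 and SGCA at 228 in control cells, and at 356 and 293 in knockdown cells. DAG1 then made up 52.5% to 53.4% of the summed level in control libraries and 42.6% to 43.9% in knockdown libraries. The table sums all transcripts of a gene, so full-length dystrophin and the short forms made from internal starts, such as those used in brain, retina and nerve, cannot be told apart in it. The same holds for the long and short forms of utrophin.

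**Figure D1:**
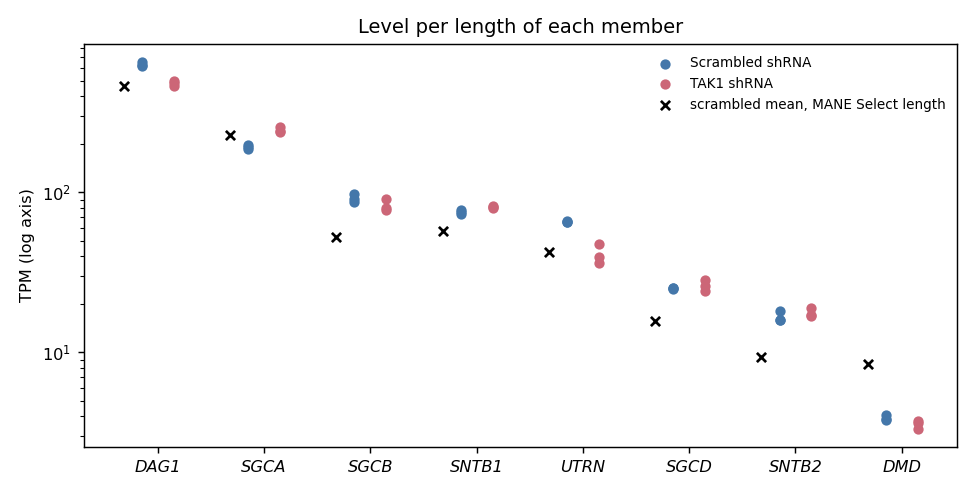
Level per length of each member, in TPM with the exon union as gene length (log axis), with 1 point per library for scrambled shRNA (blue) and TAK1 shRNA (red), and a cross for the control mean in TPM computed with MANE Select lengths (canonical or longest transcript for genes without one). DAG1 stands highest and DMD lowest in both groups, and the UTRN and DAG1 points of the knockdown libraries lie below those of the control libraries.

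The actin-linking members were compared first. UTRN (ENSG00000152818.20, chromosome 6 from 144285335 to 144853034, plus strand of GRCh38) was counted at 221, 223 and 221 CPM in the 3 control libraries and at 119, 128 and 156 CPM in the 3 knockdown libraries. All knockdown libraries lay below all control libraries, and replicate 3 of the knockdown was the least reduced. The mean of UTRN dropped from 222 ± 1.55 to 134 ± 19.1 CPM (SD, n = 3). On the log2 scale this was -0.72 (SE 0.065, 95% interval from -0.86 to -0.59), and the adjusted p by edgeR was 3.38e-09. Only 3.02% of the tested genes had a lower log2 fold change. The spread among the knockdown libraries was wider than among the control libraries, and the UTRN estimate moved between -0.85 and -0.64 when single libraries were omitted.

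DMD (ENSG00000198947.18, chromosome X from 31097677 to 33339609, minus strand) encodes dystrophin and spans 2241.9 kb. It stood at 48.1, 47.1 and 50.3 CPM in control libraries and at 40.3, 42.7 and 44.9 CPM in knockdown libraries. The groups did not overlap, but the distance between them was small beside that of UTRN. DMD averaged 48.5 ± 1.63 CPM in control and 42.6 ± 2.31 CPM in knockdown libraries (SD, n = 3). Its log2 fold change, -0.18 with a 95% interval from -0.31 to -0.05, was smaller in size than the fold threshold, at an adjusted p of 0.0261 by edgeR. The adjusted p of DMD exceeded 0.05 without replicate 1 (0.0571), 2 (0.0507) or 3 (0.129) of the control libraries, without replicate 1 of the knockdown libraries (0.0845) and with scaling by library size alone (0.1).

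The ratio of DMD to UTRN counts within a library does not depend on how libraries are scaled. This ratio was 0.218, 0.211 and 0.228 in control libraries and 0.339, 0.334 and 0.288 in knockdown libraries. It was higher in each knockdown library than in any control library, by 0.55 on the log2 scale, where the SD was 0.06 among control and 0.13 among knockdown libraries. The two-sided exact permutation test gave p = 0.1, the smallest that 3 against 3 allows, and 0.15 after adjustment over the 3 ratios tested. The ratio describes a change between groups and not the relative abundance of the proteins.

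**Figure D2:**
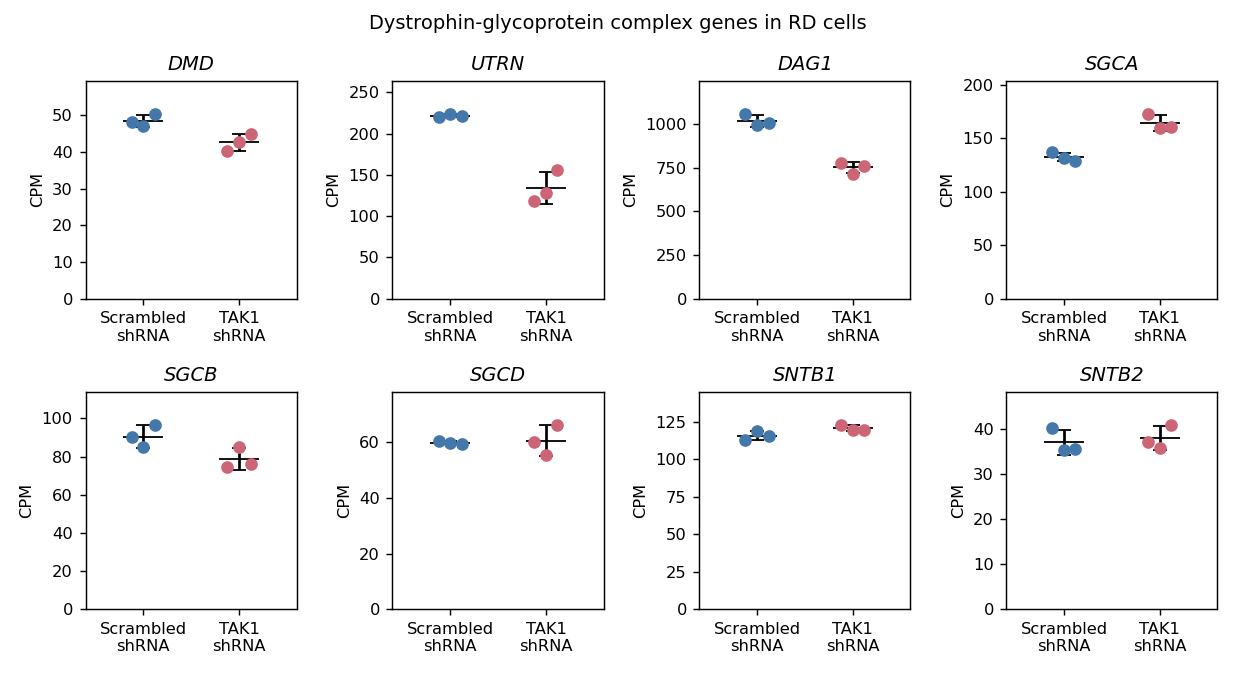
Expression of the 8 members in CPM (vertical axes from 0) in each library, with points for libraries, a bar for the mean and error bars for the SD (n = 3). The knockdown points of UTRN and DAG1 lie below the control points and those of SGCA above them, whereas the points of SGCD and SNTB2 overlap.

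DAG1 (ENSG00000173402.13, chromosome 3 from 49468713 to 49535618, plus strand), the dystroglycan precursor, was the member with the most counts, from 22818 to 31355 per library. Its expression was 1057, 996 and 1005 CPM in control libraries and 780, 716 and 759 CPM in knockdown libraries. The groups were separated by more than the range within either of them. Mean DAG1 expression was 1019 ± 32.9 CPM in control and 752 ± 32.8 CPM in knockdown cells (SD, n = 3). The log2 difference was -0.44 (SE 0.043, 95% interval from -0.53 to -0.35), and its adjusted p by edgeR was 1.48e-08.

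Among the sarcoglycans, SGCA rose, SGCB passed the adjusted p but not the fold threshold, and SGCD passed neither. SGCA (ENSG00000108823.17, chromosome 17 from 50164214 to 50175928, plus strand), which encodes the muscle-restricted alpha-sarcoglycan, was at 137, 132 and 129 CPM in control libraries and at 173, 160 and 160 CPM in knockdown libraries. Every knockdown library was above every control library. SGCA averaged 133 ± 4.15 CPM in control and 164 ± 7.11 CPM in knockdown cells (SD, n = 3). It rose by 0.31 on the log2 scale (SE 0.049, 95% interval from 0.21 to 0.41), with an adjusted p of 1.96e-05 by edgeR. Of its exon bases, 3.37% are shared with a noncoding gene on the opposite strand, and strand use in the counting is not given in the sources used here.

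SGCB (ENSG00000163069.13, chromosome 4 from 52020706 to 52038299, minus strand), the beta-sarcoglycan gene, was at 90.1, 84.8 and 96.6 CPM in control libraries and at 74.5, 85.2 and 76.4 CPM in knockdown libraries. Replicate 2 of the knockdown lay within the control range, so the groups overlapped. The log2 fold change was -0.20 with a 95% interval from -0.32 to -0.08 (adjusted p = 0.0112 by edgeR). Without that library SGCB passed both thresholds at -0.26, and without replicate 3 of the control its adjusted p was 0.108, at -0.15. Scaling by library size alone also took the adjusted p of SGCB above 0.05, to 0.0594.

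The gene of delta-sarcoglycan, SGCD (ENSG00000170624.14, chromosome 5 from 155870344 to 156767788, plus strand), was at 60.3, 59.7 and 59.2 CPM in control libraries and at 60.2, 55.1 and 66.1 CPM in knockdown libraries. The knockdown libraries spread to both sides of the narrow control range. The log2 fold change of SGCD was 0.02 with a 95% interval from -0.11 to 0.15 (adjusted p = 0.870 by edgeR), so a change of the fold threshold in either direction lay outside this interval.

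The ratio of SGCA to SGCB counts was 1.52, 1.56 and 1.33 in control libraries and 2.32, 1.88 and 2.10 in knockdown libraries. It was thus higher in all knockdown libraries, by 0.51 on the log2 scale against SDs of 0.12 and 0.15. The two-sided exact permutation p was 0.1, the smallest possible, and 0.15 after adjustment over the 3 ratios.

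**Figure D3:**
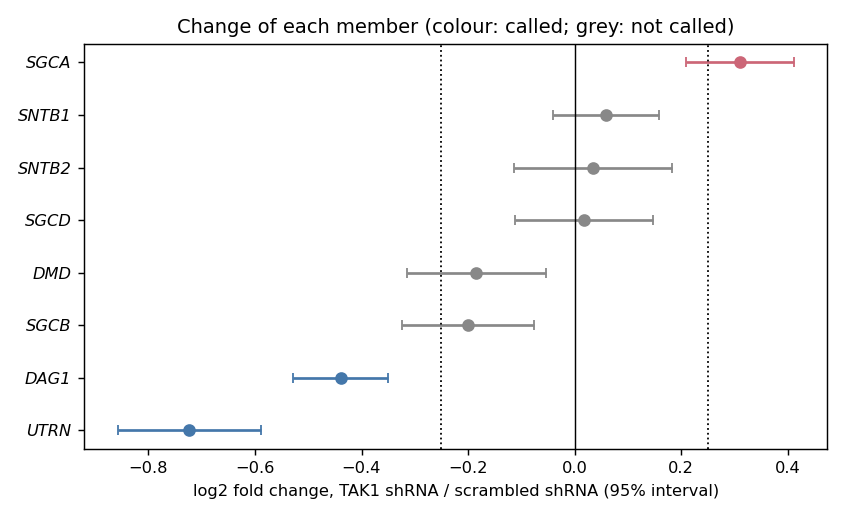
Log2 fold change of each member between TAK1 shRNA and scrambled shRNA, with 95% intervals from the edgeR fit. Dotted lines mark the fold threshold of 0.25, and color marks called genes. The intervals of UTRN and DAG1 lie wholly below the lower line, that of SGCA crosses the upper line, and those of SNTB1, SNTB2 and SGCD include 0.

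Neither syntrophin gene passed the test. SNTB1 (ENSG00000172164.15, chromosome 8 from 120535745 to 120813273, minus strand) was at 113, 119 and 115 CPM in control libraries and at 123, 119 and 120 CPM in knockdown libraries. The groups did not overlap, by a margin of less than 1 CPM. The log2 fold change was 0.06 with a 95% interval from -0.04 to 0.16 (adjusted p = 0.382 by edgeR). Exons on the opposite strand, of MTBP and a noncoding gene, share 10.8% of the SNTB1 exon bases.

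SNTB2 (ENSG00000168807.17, chromosome 16 from 69187147 to 69309052, plus strand), of whose exon bases 0.94% are shared with another gene on the same strand, had the fewest counts of the members, from 1084 to 1351 per library. It was at 40.3, 35.3 and 35.6 CPM in control libraries and at 37.1, 35.8 and 40.9 CPM in knockdown libraries, and the groups overlapped. The log2 fold change of SNTB2 was 0.03 with a 95% interval from -0.11 to 0.18 (adjusted p = 0.761 by edgeR). The ratio of SNTB1 to SNTB2 counts was 2.81, 3.37 and 3.24 in control libraries and 3.32, 3.34 and 2.92 in knockdown libraries, which overlapped, with a difference of 0.03 on the log2 scale and a two-sided exact permutation p of 0.7.

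**Figure D4:**
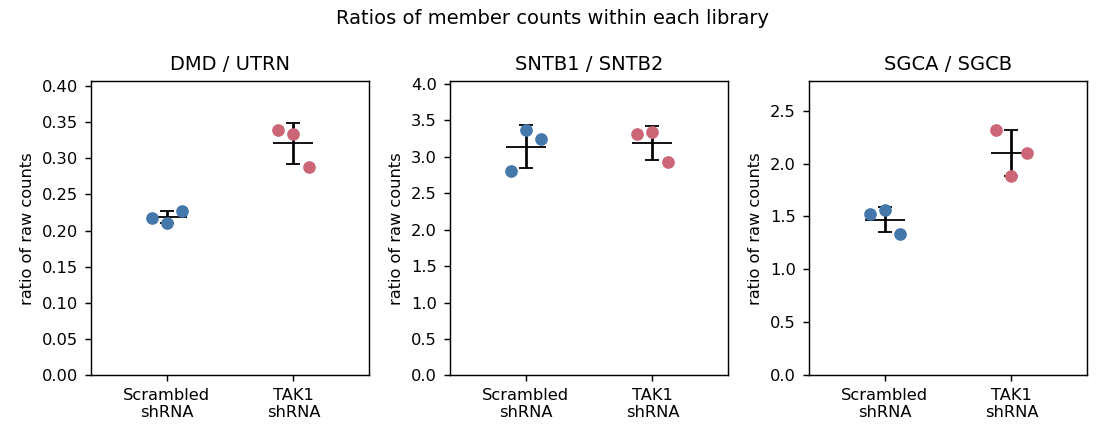
Ratio of the raw counts of 2 members within each library (vertical axes from 0), with points for libraries, a bar for the mean and error bars for the SD (n = 3). The ratios of DMD to UTRN and of SGCA to SGCB are higher in all knockdown libraries than in any control library, and the ratio of SNTB1 to SNTB2 overlaps.

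The genes whose expression followed UTRN and DMD most closely were sought by Pearson's r of log2 CPM over the 6 libraries, among the 13720 genes that averaged 1 CPM or more in a group. For UTRN these were FEN1, a flap endonuclease of DNA replication (r = 0.997, log2 fold change -0.32), AC083799.1 (r = 0.997, log2 fold change -0.47) and CEP55, a protein of the midbody (r = 0.997, log2 fold change -0.42). For DMD they were ACAA2, a mitochondrial thiolase (r = 0.999, log2 fold change -0.16), PHF6 (r = 0.998, log2 fold change -0.10) and GTPBP4 (r = 0.998, log2 fold change -0.21). With 6 libraries in 2 groups, r rises with any difference between the groups, and it is given as a description of likeness.

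The remaining genes of the pathway were grouped by role, and their counts stand beside 11.8% called up and 11.3% called down among all tested genes. Of 11 other subunits and relatives, 6 were tested, and 1 rose (16.7%), 1 fell (16.7%) and 4 did not pass. DTNA, which encodes alpha-dystrobrevin, a dystrophin relative that also binds syntrophin, was at 8.09, 6.99 and 6.75 CPM in control libraries and at 12.2, 12.9 and 12.7 CPM in knockdown libraries. It rose by 0.80 on the log2 scale (SE 0.11, adjusted p = 2.17e-06 by edgeR), the largest increase among the pathway genes called. SGCE, which encodes the broadly expressed epsilon-sarcoglycan, was at 33.8, 34.0 and 38.8 CPM in control libraries and at 28.3, 29.7 and 27.7 CPM in knockdown libraries. It fell by 0.31 on the log2 scale (adjusted p = 0.00138 by edgeR), and without replicate 3 of the control the value was -0.25, just under the fold threshold. Sarcospan (SSPN), a membrane protein of the sarcoglycan subcomplex, was left untested because of low counts, with means of 0.0423 CPM in control and 0.0215 CPM in knockdown libraries.

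Enzymes that build the laminin-binding glycan on alpha-dystroglycan were tested for 18 of 18 genes, of which 3 rose, 0 fell and 15 did not pass. The share called was 16.7%, all of it upward, against 23.1% called either way and 11.8% called up among all tested genes. The log2 fold change was above 0 for 14 of the 18, with a median of 0.10, and for 8370 of all 15935 tested genes, with a median of 0.02. B3GALNT2, which adds N-acetylgalactosamine to the core glycan, was at 16.9, 18.6 and 19.8 CPM in control libraries and at 29.7, 25.6 and 26.9 CPM in knockdown libraries, a log2 fold change of 0.57 (adjusted p = 6.23e-06 by edgeR). POMT1, a subunit of the enzyme that starts the glycan by O-mannosylation, rose from 37.9 ± 1.19 to 48.3 ± 3.57 CPM (SD, n = 3). B4GAT1, which adds the glucuronic acid on which matriglycan is built, rose from 38.8 ± 0.758 to 49.1 ± 3.60 CPM (SD, n = 3). Of the exon bases of B3GALNT2, 29.4% are shared with genes on the opposite strand.

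Of 13 extracellular ligands, 11 were tested, with 1 gene up (9.09%, against 11.8% of all tested genes), 3 down (27.3%, against 11.3%) and 7 not passing. The proteoglycan gene BGN (biglycan) fell most, by 0.74 on the log2 scale (adjusted p = 1.34e-12 by edgeR), with 1075 ± 42.1 CPM in control and 645 ± 17.0 CPM in knockdown libraries (SD, n = 3). The laminin chains gamma1 (LAMC1) and beta1 (LAMB1) fell by 0.39 and 0.36 on the log2 scale, and for both the knockdown libraries lay below all control libraries. LAMA5, the laminin alpha5 chain, rose by 0.34 on that scale, from 352 ± 10.7 to 445 ± 36 CPM (SD, n = 3). LAMA2, the alpha2 chain of muscle laminin, was at 0.248 (adjusted p = 0.000168 by edgeR), just under the fold threshold, and was added after its value was seen. The count of ligands called up was 3 without replicate 1 of the control or replicate 2 of the knockdown libraries, and 2 without replicate 3 of the control or replicate 1 of the knockdown libraries.

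Intracellular partners were tested for 15 of 18 genes, with 5 up (33.3%, against 11.8% of all tested genes), 2 down (13.3%, against 11.3%) and 8 not passing. SYNM, the intermediate filament protein synemin that binds dystrophin, fell by 0.48 on the log2 scale (adjusted p = 7.22e-07 by edgeR), with 55.5 ± 0.301 CPM in control and 39.9 ± 1.31 CPM in knockdown libraries (SD, n = 3). ANK2, an ankyrin that helps to place dystrophin and dystroglycan at the membrane, rose from 83.2 ± 1.99 to 108 ± 8.13 CPM (SD, n = 3). VIM (vimentin) fell by 0.28 on the log2 scale, and FLNC, the filamin that binds sarcoglycans, rose by 0.27. The other partners called up, named after their values were seen, were CAV3 (caveolin-3, 0.71), PLEC (plectin, 0.26) and MAPK12 (p38 gamma, 0.28), given as log2 fold changes. CAV3 averaged 1.24 CPM in control and 2.02 CPM in knockdown libraries, and it was no longer called when any single library other than replicate 3 of the control was left out. PLEC was under the fold threshold in 4 of the 6 fits that omit a single library (0.21 to 0.24), without replicate 2 or 3 of the control or replicate 1 or 3 of the knockdown. MAPK12 was under it without replicate 1 (0.23) or 2 (0.21) of the knockdown, and its groups overlapped. The count called up was 3 without replicate 2 or 3 of the control or replicate 2 or 3 of the knockdown libraries, and 1 without replicate 1 of the knockdown, and FLNC reached only 0.24 on the log2 scale when replicate 3 of the control was omitted and 0.23 when replicate 1 of the knockdown was. VIM was under it with scaling by library size alone (-0.23). Exons on the opposite strand share 27.8% of the exon bases of SYNM and 24.6% of those of VIM. MAPK12 shares 29.7% of its exon bases, mostly with HDAC10 on the same strand.

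**Figure D5:**
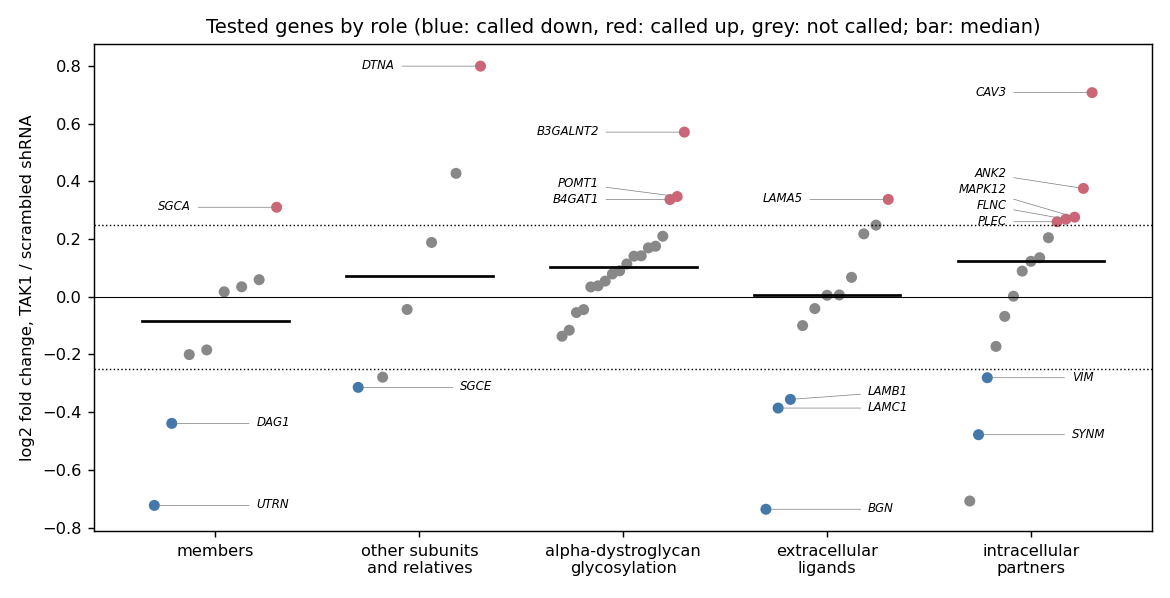
Log2 fold change of each tested gene by role, with blue for genes called down, red for genes called up, grey for genes not called, a bar for the median of each list and dotted lines at the fold threshold of 0.25. The members, other subunits, ligands and partners hold called genes in both directions, and the 3 called glycosylation enzymes lie above the upper line.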

How the data were processed

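The authors sequenced poly(A) RNA of 3 control and 3 TAK1 knockdown RD libraries and deposited raw counts of reads per gene, from 28839898 to 34469323 per library. Reads were base-called with CASAVA, cleaned of adaptors and low-quality reads and aligned to GRCh38 with STAR, and the counting program, annotation release and strand use are not given in the sources used here. Groups came from the sample titles. The counts were normalized here by the trimmed mean of M-values after edgeR's default expression filter and compared with edgeR 4.0.16 (quasi-likelihood test, R 4.3.3), with DESeq2 1.42.0 and limma 3.58.1 as alternatives. P-values were adjusted over all 15935 tested genes. Standard errors were derived from the F statistic of each gene. The common biological coefficient of variation was 5.67%. All replicates differed by more than sampling noise (chi-square per degree of freedom from 2.86 to 8.67). Positions, lengths and exon overlaps came from GENCODE 44, and 36185 names had a length. A check of the tests on simulated counts is not reported here, and no result above rests on one. The members, lists and tests were chosen with earlier results of these data known. Named were all members, MAP3K7, from each role list up to 4 called genes with the smallest adjusted p, and the 3 genes most like DMD and UTRN. SSPN, LAMA2, CAV3, PLEC and MAPK12 were named outside this rule. A planned protein comparison was not run.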

Additional observations from a re-analysis of the deposited data

How the results depend on the processing

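The calls of UTRN, DAG1 and SGCA held under all 14 alternatives that kept the fold threshold, with log2 fold changes from -0.85 to -0.64, from -0.47 to -0.39 and from 0.27 to 0.36. At a fold threshold of 0.5, 1 member was down and 0 were up, and with no fold threshold 4 were down. Of all 15935 tested genes, 735 were then up and 680 down at 0.5, and 2569 were up and 2734 down with no fold threshold. With each library left out, members called down ran from 2 to 3, SGCB from -0.26 to -0.15, SGCD from -0.063 to 0.079, SNTB2 from -0.034 to 0.097, and the log2 ratio of SNTB1 to SNTB2 from -0.052 to 0.088, so the last 3 changed sign.

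For the role lists at 0.5, other subunits had 0 of 6 down, and 1 of 18 glycosylation enzymes was up. The 11 tested ligands had 0 up and 1 down, and the 15 tested partners 1 up and 0 down. These counts stand beside 735 up and 680 down of all 15935 tested genes. With no fold threshold, 5 of 18 glycosylation enzymes and 3 of 11 ligands were up, beside 2569 of all 15935 tested genes. Ligands called up were 2 with upper-quartile normalization or at least 10 counts in every sample and 3 with scaling by library size alone, which left 1 partner down. With a library left out, other subunits down ran from 0 to 1, ligands up from 1 to 3 and partners up from 1 to 4. By library size alone 62.9% of all calls were upward, against 51% with the main scaling. The cause of these shifts was not tested, beyond the stricter or looser threshold itself. Treating the replicate number as a block gave -0.73 for UTRN, -0.44 for DAG1 and 0.31 for SGCA, with 1942 genes up and 1848 down in all, and it changed no call of a member. With the block, the SE of UTRN was 0.049 in place of 0.065, and the adjusted p of DMD by edgeR was 0.00894 in place of 0.0261. Same-numbered libraries correlated at 0.092, 0.056 and 0.035 in their deviations from the group means. Each library correlated best with its own number except replicate 3 of the control, which stood at 0.049 with replicate 2 of the knockdown. The labels state no pairing, and the main test did not use the numbers. With 3 libraries a group, a two-sided exact permutation test cannot go below 0.1.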
